A study of Mus musculus with 5 samples.

Results

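Fga, Fgb and Fgg encode the Aα, Bβ and γ chains of fibrinogen, and their transcripts were followed here across the segments of the mouse kidney tubule during ureteral obstruction and after its reversal. The 3 genes are 3 of the 28692 gene IDs in the droplet files. They were chosen by a measured result: an earlier look at these same libraries had found a proximal tubule cluster led by Fgg, Fga and Fgb that held most proximal tubule cells of day 2 and almost none of sham. The difference between those libraries in proximal tubule cells is therefore a description, as are all values that rest on it.

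The material was kidney from C57/BL6 mice aged 8 weeks, dissociated and sorted for live cells. Of the 4 droplet libraries, the sham library came from mice at day 0 with sham surgery, the day 2 and day 7 libraries from mice 2 and 7 days after unilateral ureteral obstruction (UUO, tying off 1 ureter so that urine backs up into that kidney), and the reversed library from mice 7 days after the obstruction was undone, on experimental day 14. No genetic change or drug is named for any group. Each library pooled 3 mice, so a time point is 1 unreplicated sample. The libraries are therefore described side by side with no test, and the intervals below (95%, exact) cover counting error only. An additional plate-based library (Smart-seq2) mixed all time points.

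The droplet files held 5938, 2739, 4504 and 3695 cells of sham, day 2, day 7 and reversed, and 13332 of the 16876 cells were kept. Total counts of unique molecular identifiers (UMIs, each standing for 1 captured transcript) ranged from 18649637 to 30462683 per library. The sham library stood apart, with a median of 2480.5 UMIs per cell against 4709 to 5668 in the others and a median of 40.6% mitochondrial UMIs against 3.00% to 16.2%. Pairs of libraries shared 16 to 39 cell barcodes. Fga had 1869 UMIs, Fgb 817 and Fgg 3922 over all deposited cells, and 5900 of these 6608 UMIs were in the kept cells.

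Fibrinogen is the soluble precursor of fibrin, the protein mesh of a clot, and is built from paired Aα, Bβ and γ chains that are joined by disulfide bonds in the endoplasmic reticulum before secretion. Hepatocytes are its main source, where the 3 genes form a classic acute-phase group switched on by interleukin 6 through STAT3 together with C/EBP factors. In hepatoma cells the supply of the Bβ chain has been described as limiting for assembly, and fibrinogen has been described as a marker of kidney injury.

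The 3 genes lie side by side on chromosome 3 (GRCm38), in a span of 42.1 kb with no other annotated gene wholly inside it. Fgg (ENSMUSG00000033860, 83007724 to 83015049, plus strand, 10 exons) is followed 11.03 kb further on by Fga (ENSMUSG00000028001, 83026076 to 83033627, plus strand), and after 6.51 kb by Fgb on the opposite strand (ENSMUSG00000033831, 83040141 to 83049863, 8 exons). A noncoding RNA, Gm30097, overlaps Fgg on the other strand and had 23 UMIs in all 4 libraries. Their promoters are shown because the 3 chains were high together in the proximal tubule. Each sequence is RefSeq's window (GRCm38.p6) from 250 bases before to 50 bases after the gene's start, 5′ to 3′ on the gene's strand, and capitals mark CTGGGA, the core of the interleukin 6 response element, or its reverse complement TCCCAG.
Fga promoter, chr3:83025903-83026202, plus strand: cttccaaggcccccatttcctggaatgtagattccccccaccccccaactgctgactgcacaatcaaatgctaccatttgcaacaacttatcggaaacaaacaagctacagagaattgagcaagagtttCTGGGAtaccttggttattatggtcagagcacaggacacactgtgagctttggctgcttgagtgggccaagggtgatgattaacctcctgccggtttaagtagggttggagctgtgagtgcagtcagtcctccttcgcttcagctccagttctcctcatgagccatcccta
Fgb promoter, chr3:83049814-83050113, minus strand: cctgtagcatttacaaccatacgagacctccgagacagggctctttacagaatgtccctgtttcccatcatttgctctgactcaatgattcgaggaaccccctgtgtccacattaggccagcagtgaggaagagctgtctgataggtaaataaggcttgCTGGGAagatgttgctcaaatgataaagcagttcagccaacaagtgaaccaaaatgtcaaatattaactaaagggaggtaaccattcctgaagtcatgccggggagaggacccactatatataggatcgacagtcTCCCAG
Fgg promoter, chr3:83007474-83007773, plus strand: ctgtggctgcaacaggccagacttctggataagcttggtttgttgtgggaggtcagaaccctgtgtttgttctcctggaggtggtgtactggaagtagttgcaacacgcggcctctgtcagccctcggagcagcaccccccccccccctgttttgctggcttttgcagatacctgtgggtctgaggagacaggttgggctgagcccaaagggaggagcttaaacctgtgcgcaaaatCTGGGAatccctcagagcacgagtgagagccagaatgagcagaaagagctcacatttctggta
The RefSeq start of Fga lies 77 bases inside the gene model given above, while those of Fgb and Fgg are the same, and positions are counted from the RefSeq starts. CTGGGA began 121 bases before the start in Fga, 91 bases before it in Fgb and 13 bases before it in Fgg, and Fgb also had TCCCAG at its 3′ end, 45 to 50 bases after the start. On either strand, these 6 letters were present in 31.8% of 32851 promoter windows of this length, so a match is common. The C/EBP site TTGCNNAA was found 135 to 128 bases before the start of Fga and 80 to 73 bases before that of Fgb, against 10.8% of all windows. In the Fgg window only CTGGGA of these motifs had a match.

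Proximal tubule cells, the reabsorbing cells of the first part of the nephron, had the highest fibrinogen level among classes of 30 or more cells in every library. A cell was assigned to a class from a fixed marker list, and the 4606 cells so called proximal tubule had a median of 12 of 14 markers; 99.9% of them lay in clusters that the same markers name proximal tubule. Sham had 2926 such cells, day 2 455, day 7 165 and reversed 1060. The 3 chains together had 244 UMIs or 25.9 counts per 1000000 UMIs of those cells (CPM) in sham [22.8 to 29.4], 2376 UMIs or 940.5 CPM at day 2 [903 to 979], 574 UMIs or 537 CPM at day 7 [494 to 583] and 360 UMIs or 60.0 CPM after reversal [54.0 to 66.6]. Day 2 was the highest library, day 7 the next, and sham the lowest, and none of the 4 intervals overlap.

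Fga, the Aα chain, had 9.35 CPM in sham, 243 at day 2, 177 at day 7 and 18.0 after reversal. Fgb, the Bβ chain, had 3.40, 118, 44.9 and 6.34 CPM in the same order. Fgg, the γ chain, had 13.2, 579, 316 and 35.7 CPM. Each chain thus kept the same order of libraries, and each was found in more cells of day 2 than of any other library: Fga in 50.5% of day 2 proximal tubule cells against 2.77% of sham, Fgb in 30.1% against 1.09%, and Fgg in 70.5% against 3.86%.

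On a scale of log2 of CPM + 1, the sum was higher at day 2 than in sham by 5.13 [4.94 to 5.32], or 36.3-fold. All 3 chains were at least 4-fold higher, as were 1.81% of the 9689 genes with 30 or more UMIs; since this contrast chose the genes, nothing is read from that count. Day 7 was lower than day 2, at a log2 ratio of −0.81 [−0.94 to −0.67], with −0.46 for Fga, −1.37 for Fgb and −0.87 for Fgg. The 2 times drew on different clusters of proximal tubule cells, and this lower level was not seen in each cluster, as given with the clusters. None of the chains was 4-fold lower there, against 0.17% of all genes. Reversed was lower than day 7 by 8.95-fold, at a log2 ratio of −3.14 [−3.33 to −2.95], and all 3 chains were 4-fold lower or more, against 0.635% of all genes. Day 7 and reversed cells also lay in different clusters, and in a cluster led by Slco1a1 their intervals overlap, as given with the clusters. Compared with sham, the reversed library was still 2.32-fold higher, at 1.18 [0.95 to 1.41], with none of the chains 4-fold higher against 2.03% of all genes. This difference passed counting error in some clusters and not in others, as given with the clusters.

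The median mitochondrial share of proximal tubule cells was 34.9%, 24.1%, 20.5% and 31.4% in sham, day 2, day 7 and reversed, and their median depth 2596.5, 4440, 5418 and 4567.5 UMIs, so sham was the shallowest and had the highest mitochondrial share; their part in the ratios was not tested. Scaling by TMM factors moved the median of all genes by −0.34, −0.22, 0.26 and −0.30 in the 4 ratios above, and none of the 4 ratios of the sum changed sign.

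**Figure D1:**
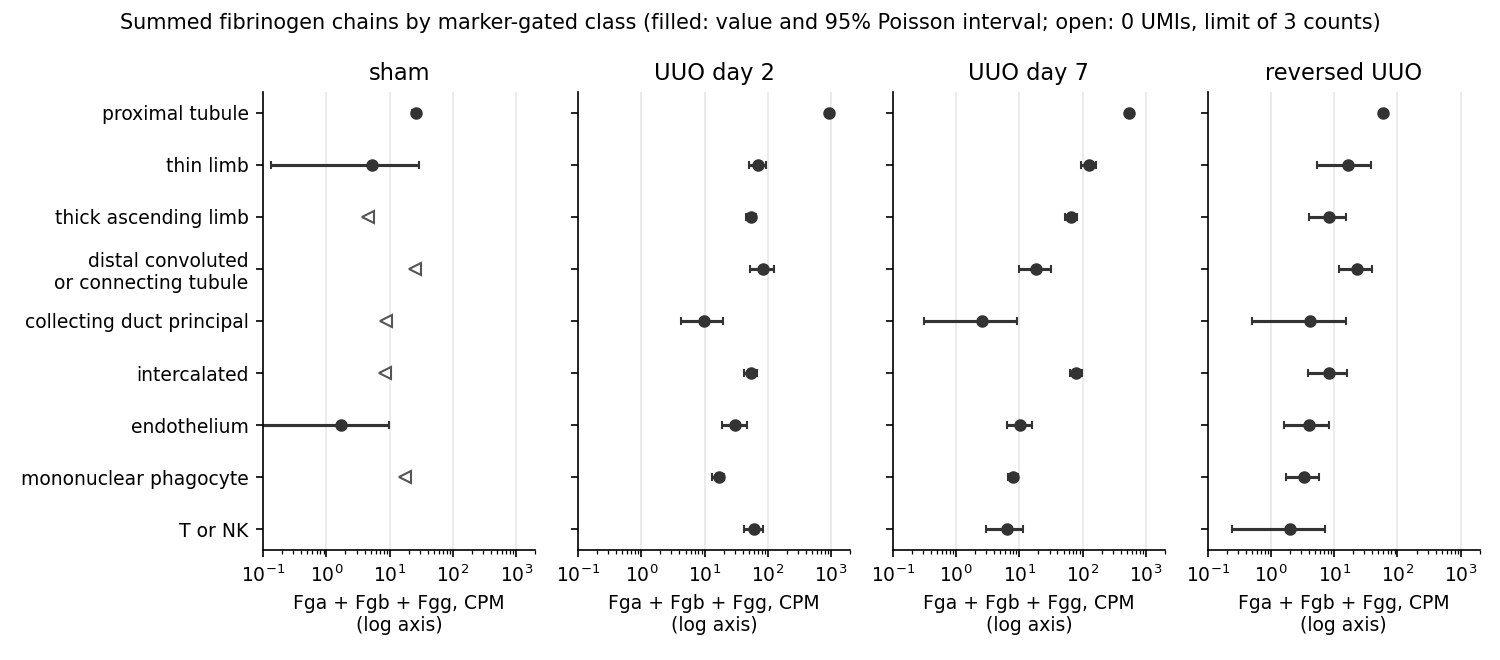
Summed Fga, Fgb and Fgg in gated classes of 30 or more cells, in CPM on a log axis for each library; filled points carry 95% Poisson intervals for counting error, and open triangles mark the limit of 3 counts for classes with 0 UMIs. Proximal tubule is highest in every library, from 25.9 CPM in sham to 940.5 CPM at day 2.

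Within the proximal tubule, cells were split by markers of the early segments (S1 or S2) and of the straight end segment (S3). In S1 or S2 cells (2061, 288, 47 and 780 cells of sham, day 2, day 7 and reversed), the sum was 29.0 [25.1 to 33.3], 798 [756 to 842], 745 [657 to 841] and 66.1 [58.8 to 74.1] CPM. In S3 cells (460, 73, 82 and 200 cells) it was 17.1 [11.04 to 25.2], 1328 [1223 to 1438], 388 [337 to 445] and 47.4 [35.4 to 62.2] CPM. S3 was therefore the higher segment at day 2 and the lower at day 7 beyond counting error, while in sham and after reversal the intervals overlap. The fold between day 2 and sham was 27.5 in S1 or S2 and 77.8 in S3.

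At day 7 the segments separated. The sum in S1 or S2 cells differed from day 2 by a log2 ratio of −0.10 [−0.30 to 0.09], an interval that holds 0. In S3 cells it was −1.77 [−2.01 to −1.54], or 3.42-fold lower. S3 cells were also a larger share of the class at day 7, with 82 of 165 proximal tubule cells against 73 of 455 at day 2. Cells between the segments (405, 94, 36 and 80) had 17.4, 1084, 578 and 25.3 CPM.

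Fgb differed between the segments in each library. In sham all 32 Fgb UMIs of the proximal tubule were in S1 or S2 cells, at 4.59 CPM [3.14 to 6.48], and S3 cells had 0, which by the floor of 3 UMIs allows up to 2.05 CPM. At day 2 Fgb had 82 UMIs in S3 cells (182 CPM [145 to 226], in 27 cells) and 168 in S1 or S2 cells (102 CPM [86.9 to 118]), so here S3 was the higher. At day 7 S3 cells had 2 Fgb UMIs, or 3.73 CPM [0.452 to 13.5], while S1 or S2 cells had 38, or 108 CPM [76.7 to 149]. After reversal S3 cells again had 0 Fgb UMIs (up to 2.74 CPM) and S1 or S2 cells 36 (7.99 CPM).

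Fgb was thus near 0 in S3 cells at day 7 while the other chains were not. The log2 ratio of day 7 over day 2 in S3 cells was −5.27 for Fgb [−7.01 to −3.61], −1.16 for Fga and −1.74 for Fgg, with 70 Fga and 136 Fgg UMIs still counted at day 7. Fgb made up 13.7% of the chain UMIs of S3 cells at day 2 and 0.962% at day 7 [0.117 to 3.43], against 12.7% and 14.6% in S1 or S2 cells. A single day 2 cell held 20 of the 82 Fgb UMIs in S3 (143 CPM without it), and a single day 7 S3 cell held 25 Fga, 0 Fgb and 31 Fgg UMIs. Without that cell the day 7 S3 sum was 293 CPM.

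S3 cells were spread differently over the clusters at the 2 times. At day 2, 52 of the 73 S3 cells lay in the cluster led by Spp1, Lcn2 and Wfdc2, while at day 7, 42 of the 82 lay in the cluster led by the S3 genes Slco1a1, Slc7a13 and Kap and 12 in the Spp1 cluster. Those 12 day 7 cells had 35 Fga, 0 Fgb and 68 Fgg UMIs, and the 52 day 2 cells of the same cluster had 83, 63 and 238. Within that cluster too, then, Fgb was the chain not seen in S3 cells at day 7. A single day 7 cell held 25 of the 35 Fga and 31 of the 68 Fgg UMIs, however. In the Slco1a1 cluster, S3 cells had 0 Fgb UMIs in every library. Its 5 day 2 cells had 4 Fga and 13 Fgg UMIs, and its 42 day 7 cells 7 and 11. The day 2 Fgb UMIs of S3 cells thus all lay in other clusters. The part of this shift between clusters in the lower Fgb of day 7 was not tested.

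**Figure D2:**
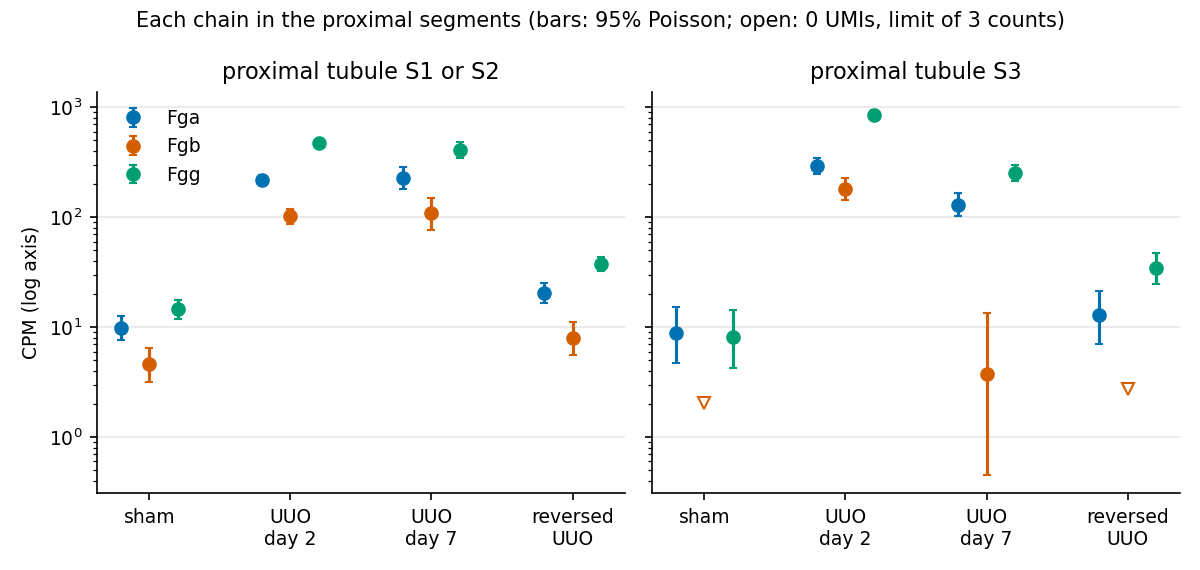
Fga, Fgb and Fgg in S1 or S2 cells and in S3 cells of the proximal tubule, in CPM on a log axis for each library with 95% Poisson intervals; open triangles mark the limit of 3 counts where there were 0 UMIs. Fgb in S3 cells is at 182 CPM at day 2 and at 3.73 CPM at day 7, and at 0 in sham and after reversal.

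Clusters of the proximal tubule, made without the 3 chains, show where in the injury range the transcripts lay. The Spp1, Lcn2 and Wfdc2 cluster held 314 of the 455 proximal tubule cells of day 2 and 42 of the 165 of day 7, but 6 of sham. It had 964 CPM of chains at day 2 [915 to 1014], 1279.6 at day 7 [1127 to 1447] and 219 after reversal. With all cells counted, day 7 was thus higher than day 2 inside this cluster, the opposite of the class as a whole. However, 56 of the 255 chain UMIs at day 7 were in a single S3 cell. The cluster's level without that cell was not computed, so this direction is not resolved. A cluster led by Slco1a1, Acsm3 and Slc7a13 held 6 cells of day 2, 52 of day 7 and 209 of reversed. It had 80.9 CPM at day 7 [50.1 to 124] and 46.8 CPM after reversal [34.9 to 61.3], intervals that overlap, and 16.6 CPM in sham [11.1 to 23.9]. A cluster led by Aoc1, Cp, Cyr61 and Havcr1, the last encoding the injury marker KIM-1, had 1038, 618 and 109 CPM. The largest sham cluster held 366 of the 1060 reversed cells and 2 of day 7. It was at 27.1 CPM in sham [22.1 to 32.9] and 53.0 CPM after reversal [43.2 to 64.4]. Sham and reversed intervals overlap in the cluster led by Ttr and Mdk (24.6 [17.6 to 33.5] and 30.9 [18.3 to 48.8] CPM). They overlap too in that led by Snx29 (34.1 [25.7 to 44.4] and 38.9 [29.6 to 50.2] CPM), where day 7 had 347 CPM. No cluster held 30 or more proximal tubule cells of both sham and day 2, so under that limit they were not compared within clusters. In the Snx29 cluster 20 day 2 cells had 69 chain UMIs and 314 sham cells 55.

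Day 2 proximal tubule cells with a UMI of Havcr1 had 1571 CPM of chains (85 cells) against 733 CPM in the 370 cells without, and those with Sox9, a factor of tubule repair, 1822 CPM (35 cells) against 822. The cells with Havcr1 were deeper, at a median of 6644 against 4310.5 UMIs, as were those with Sox9 (8122 against 4257), and the part of depth was not tested. Lcn2 did not divide the cells in this way at day 2, with 916 CPM in cells with it and 957 in cells without. At day 7 Havcr1 went with 836 against 353 CPM (median depth 9505 against 4469 UMIs). Krt8, a keratin of injured tubule, went with 822 against 405 CPM at that time (median depth 8251.5 against 4544 UMIs), while day 7 cells with Vcam1 had 521 and those without 545. Cells with Clu had 964 CPM against 835 at day 2 and 505 against 609 at day 7, with overlapping intervals at each time.

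Fibrinogen is secreted as a complex of all 3 chains, and co-detection counts cells that held UMIs of each. In the proximal tubule all 3 were found in 0 of 2926 sham cells (which allows up to 0.103%), 93 of 455 day 2 cells (20.4% [16.8 to 24.4]), 16 of 165 day 7 cells (9.70% [5.64 to 15.3]) and 6 of 1060 reversed cells (0.566% [0.208 to 1.23]). A single chain was found in 6.77%, 26.2%, 29.1% and 16.2% of cells. Among cells with any chain, 93.4% of sham and 81.9% of reversed cells had a single one, against 33.3% at day 2 and 52.7% at day 7.

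With every cell thinned to 1000 UMIs, which left out no cell, all 3 chains were found in 8 day 2 cells (1.76% [0.762 to 3.43]) and 3 day 7 cells (1.82% [0.377 to 5.22]), and in 0 of sham and reversed. Shares of cells with all 3 chains therefore depend strongly on depth, and at 1000 UMIs the order of day 2 and day 7 is not resolved. Thinned to 2000 UMIs, the shares were 5.71% and 1.21%. Any chain was found in 2.67%, 43.7%, 27.3% and 4.72% of thinned proximal tubule cells of sham, day 2, day 7 and reversed.

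Among the day 2 proximal tubule cells, Fgg was present in 89.1% of cells with Fgb and in 87.8% of cells with Fga, while Fga was present in 62.9% and Fgb in 38.0% of cells with Fgg. Fgg alone was found in 90 cells, Fga alone in 21 and Fgb alone in 8. Over these 455 cells, Pearson's r of log levels was 0.54 for Fga with Fgg, 0.40 for Fgb with Fgg and 0.32 for Fga with Fgb; the cells share a library and differ in depth. By segment, all 3 chains were seen in 21 of 73 S3 cells at day 2 (28.8% [18.8 to 40.6]) and 1 of 82 at day 7 (1.22% [0.0309 to 6.61]), but in 55 of 288 (19.1%) and 13 of 47 (27.7% [15.6 to 42.6]) S1 or S2 cells.

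**Figure D3:**
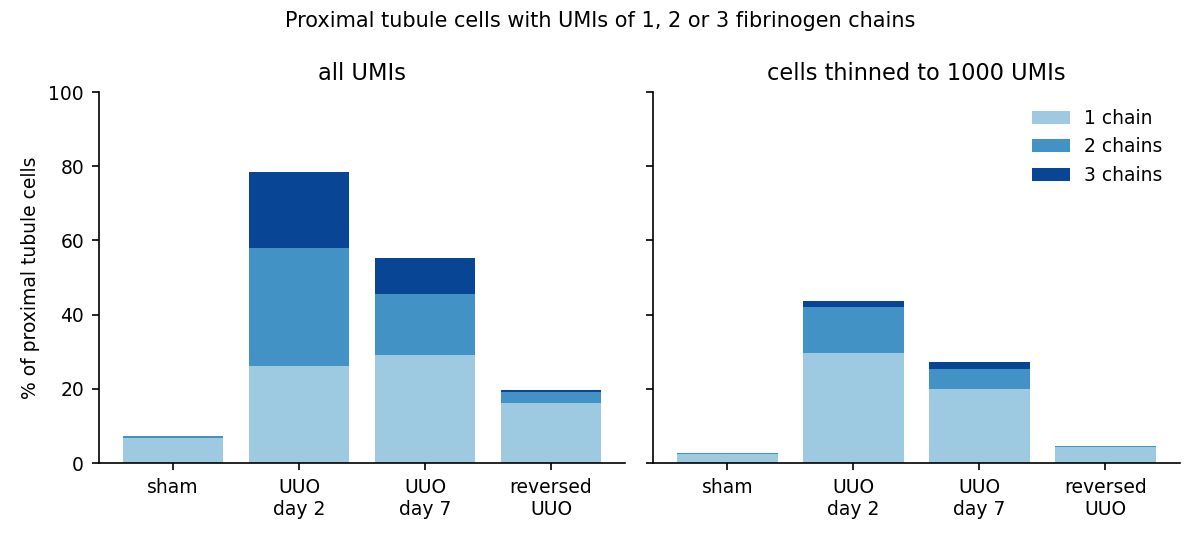
Share of proximal tubule cells with 1, 2 or all 3 fibrinogen chains in each library, before and after thinning every cell to 1000 UMIs. All 3 chains are in 20.4% of day 2 cells before thinning and in 1.76% after it.

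The transcripts were spread unevenly over cells, although 78.5% of day 2 proximal tubule cells held a chain UMI. Sham proximal tubule cells had at most 6 chain UMIs, day 2 cells up to 89, day 7 cells up to 56 and reversed cells up to 22. The median day 2 cell had 2, and the 46 highest cells held 47.0% of the day 2 UMIs. Of all kept cells, 140 had 10 or more chain UMIs, of which 105 were from day 2, 30 from day 7, 5 from the reversed library and 0 from sham. Of these 140, 94 held all 3 chains and 103 were in gated tubule classes, with 32 more among ungated cells of proximal tubule clusters. The highest was an S3 cell of day 2 with 15 Fga, 9 Fgb and 65 Fgg UMIs among 12805. Cells with 3 or more UMIs of 1 chain and 0 of the others were 53 for Fgg, 9 for Fga and 3 for Fgb, and of the 53, 26 were proximal tubule and 12 intercalated cells.

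Thick ascending limb cells, the salt-reabsorbing cells of the loop of Henle, had 0 chain UMIs in sham, 116 at day 2, 87 at day 7 and 10 after reversal, in 174, 249, 132 and 185 cells. This was 54.4 CPM at day 2 [45.0 to 65.3], 65.3 at day 7 [52.3 to 80.6] and 8.28 after reversal; day 2 was at least 11.99-fold higher than sham, as the day 2 value over a floor of 3 UMIs in the sham class, and the log2 ratio's interval began at 3.05. Day 7 over day 2 gave a log2 ratio of 0.26 [−0.15 to 0.66], an interval that holds 0. Fgg made up most of it, with 71 and 63 UMIs at day 2 and day 7, against 39 and 23 of Fga and 6 and 1 of Fgb. In no cell of this class were all 3 chains detected, among 249 cells at day 2 (up to 1.20% by detection) and 132 at day 7 (up to 2.27%), which limits detection and not expression.

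Intercalated cells, the acid-base cells of the collecting duct, had 0, 72, 91 and 9 chain UMIs in 44, 127, 127 and 105 cells. At 53.5 CPM [41.9 to 67.4] and 78.9 CPM [63.5 to 96.9], day 7 was higher than day 2 by a log2 ratio of 0.55 [0.10 to 1.01], the opposite direction to the proximal tubule. Here Fgg made up most of the transcripts: 56 of 72 UMIs at day 2 (77.8% [66.4 to 86.7]) and 85 of 91 at day 7 (93.4% [86.2 to 97.5]), with 3 and 0 of Fgb. In proximal tubule Fgg was 61.6% and 58.7% of the chain UMIs at these times, and in all non-tubule cells together 61.5% and 54.2%.

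Within the class at day 2 and day 7, Fgg was highest in cells with Slc26a4, the pendrin exchanger of type B intercalated cells, and without Slc4a1, the type A exchanger: 58.0 CPM at day 2 [42.6 to 77.1] and 120.1 CPM at day 7 [92.7 to 153]. Cells with Slc4a1 and without Slc26a4 had 18.2 CPM [5.91 to 42.5] and 42.5 CPM [17.1 to 87.5]. The 25 and 54 cells with neither had 16.3 CPM [4.44 to 41.7] and 30.7 CPM [16.4 to 52.5]. The cells with Slc26a4 alone held 47 and 65 Fgg UMIs, in 20 of 73 and 10 of 50 cells, and those with Slc4a1 alone 5 and 7, in 4 of 28 and 2 of 21 cells. The intervals of the share of cells with Fgg overlap, at 27.4% [17.6 to 39.1] and 20% [10.03 to 33.7] against 14.3% [4.03 to 32.7] and 9.52% [1.17 to 30.4]. After reversal the class had 6 Fgg UMIs in all, 1 of them in the 45 cells with Slc26a4 alone, so no such order was seen there. The day 7 UMIs were thus held by few cells, up to 16 in 1 cell.

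Cells of these classes with 3 or more chain UMIs were compared by marker with cells of the class that had none. The 8 such intercalated cells of day 2 and 11 of day 7 had medians of 5.5 and 6 of 8 intercalated markers, against 6 and 5 in cells with none, and medians of 2.5 and 2 of 14 proximal tubule markers against 3 and 2. Proximal tubule markers made up 0.850% and 0.755% of their UMIs, against 0.365% and 0.134% in cells with none. Their median depths were 11175.5 and 13307 UMIs, against 10818.5 and 7783.5 in cells with none. The 11 thick ascending limb cells of each time had a median of 5 of 8 own markers against 6 in cells with no chain UMI, and 3 and 4 of 14 proximal tubule markers against 2 and 2, at median depths of 13054 and 15545 UMIs against 6774 and 9522. They had 0.135% and 0.0667% of UMIs in proximal tubule markers, against 0.112% and 0.0508% in cells with no chain UMI. The part of proximal tubule RNA in these levels was not tested.

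Thin limb cells of the loop had 1, 42, 55 and 5 chain UMIs in 42, 69, 46 and 32 cells, or 5.25, 69.5, 126 and 16.3 CPM. A single day 7 cell held 26 UMIs; without the highest cell the class was at 51.7 CPM at day 2 and 69.6 CPM at day 7. At day 2 Fga made up 54.8% of its chain UMIs, against 25.9% in proximal tubule, and at day 7 Fgb had 23.6%, with 42 and 55 UMIs behind these shares. Distal convoluted or connecting tubule cells had 0, 23, 13 and 12 UMIs (82.9 CPM at day 2 and 18.5 CPM at day 7), with Fgg 19 of the 23 and 10 of the 13 at these times, and principal cells of the collecting duct 0, 8, 2 and 2. Tubule cells that no segment's markers claimed had 399 CPM at day 2 (69 cells) and 43.2 CPM at day 7, and ungated cells inside the proximal tubule clusters 1159 CPM at day 2 (152 cells). In sham, 20 tubule cells without a segment had 6 chain UMIs (58.1 CPM [21.3 to 126]), 5 of them in 1 cell. Among classes of 30 or more cells, proximal tubule stood first in all 4 libraries, apart from the next class beyond counting error at day 2 and day 7 but not in sham or the reversed library.

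**Figure D4:**
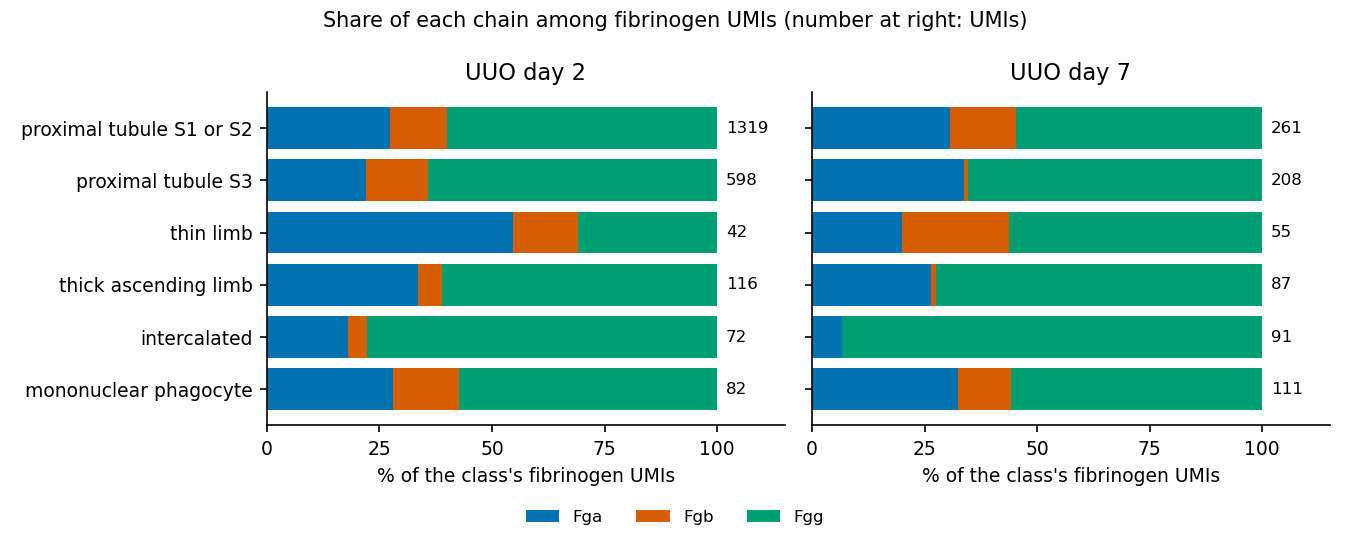
Share of Fga, Fgb and Fgg among the fibrinogen UMIs of 6 classes at day 2 and day 7, as stacked bars with the number of UMIs at the right. Intercalated cells are 77.8% and 93.4% Fgg, and Fgb is 0.962% in S3 cells at day 7.

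Immune cells, which are not known to make fibrinogen, give the background measured in the same way. T or NK cells had any chain in 0 of 19 sham cells, 7.69% of 130 day 2 cells, 2.78% of 360 day 7 cells and 0.755% of 265 reversed cells, and mononuclear phagocytes in 0%, 16.6%, 5.10% and 2.48%. Median depth at day 2 was 3538 UMIs in T or NK cells and 10234 in phagocytes. Phagocytes had 0, 16.6, 7.97 and 3.35 CPM of chains. The sham phagocytes were only 53 cells, where 0 UMIs allow up to 17.4 CPM and 5.66% of cells. The sham background in phagocytes was therefore not resolved from the day 2 level in CPM. T or NK cells had 60.4 CPM at day 2, but 24 of those 33 UMIs were in 1 cell, and 16.7 CPM without it. Endothelial cells, which line the vessels, were at 1.72, 30.5, 10.4 and 4.06 CPM.

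B cells (19) and neutrophils (23) were few at day 2: B cells had 20 chain UMIs, 18 of them in 1 cell, and neutrophils 10 UMIs in 7 cells, or 88.1 CPM [42.3 to 162]. At day 7 the 63 neutrophils had 20.3 CPM [7.44 to 44.2]. The levels in proximal tubule, thick ascending limb and intercalated cells at day 2 and day 7 were above those of phagocytes, with intervals that do not overlap. For thick ascending limb and intercalated cells at day 2, however, the intervals overlap those of endothelium (30.5 CPM [19.1 to 46.1]), neutrophils and T or NK cells, the last at 16.7 CPM without their highest cell. All non-tubule classes together were at 25.8 CPM at day 2 [22.1 to 30.04], below both tubule classes. Thinned to 1000 UMIs, any chain was found at day 2 in 43.7% of proximal tubule, 11.6% of thin limb, 4.72% of intercalated, 3.61% of thick ascending limb, 1.61% of phagocyte and 0.769% of T or NK cells. After reversal the thinned share was 4.72% in proximal tubule, 0.952% in intercalated, 0.620% in phagocytes and 0 in thick ascending limb cells, so the intercalated and thick ascending limb values of the reversed library are near those of immune cells.

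Liver cells and platelets, the cells best known to carry fibrinogen, were checked by their markers. Alb, the main hepatocyte product, had 54, 3, 2 and 33 UMIs in all kept cells of sham, day 2, day 7 and reversed. A list of 14 hepatocyte genes summed to 119, 112, 96.4 and 88.9 CPM in proximal tubule cells, with Apob the top gene (46 of 103 UMIs at day 7 and more than the others together elsewhere) and F2, Cps1, Tat and Serpina1c at 0 in all libraries. At day 2 it was 90.2 CPM in proximal tubule cells with all 3 chains and 134 CPM in those with none. A list of 8 platelet genes was at 5.52, 26.1, 33.7 and 9.005 CPM in proximal tubule cells of the 4 libraries, so the list was higher in the obstructed ones. Most of it there was 1 gene, Pf4, with 43 of 66 UMIs at day 2 and 30 of 36 at day 7, while in sham Itga2b had 43 of 52. In all kept cells Pf4 had 3846 of 4341 list UMIs at day 2 and 6456 of 6927 at day 7. The part of platelets in the result was not tested. At day 2 the platelet list had 18.6 CPM in proximal tubule cells with all 3 chains and 33.4 CPM in those with none. Pf4 was the top gene there (9 of 13 and 7 of 14 UMIs), and Gp9, Gp1bb, Gp6 and Treml1 were at 0. At day 7 the cells with all 3 chains were at 39.4 CPM of platelet genes (6 UMIs, all Pf4) against 31.4 CPM, and at 112 CPM of hepatocyte genes against 135 CPM. In the 6 such cells of the reversed library the hepatocyte list was at 173 CPM (7 UMIs) against 85.7 CPM in those with none.

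Gene lists around fibrinogen were then read in the proximal tubule; a gene counts where it had 30 or more UMIs, and as higher or lower where CPM + 1 differed 2-fold or more. These lists were chosen with earlier results of these libraries known. Between day 2 and sham, 8.21% of 9689 genes were higher and 1.31% lower, with a median log2 ratio of 0.27. Of the acute-phase genes, which the liver makes in inflammation together with fibrinogen, 7 of 10 measured were higher, with a median of 3.61. They were C3, the central complement protein (6.63 [6.14 to 7.09], from 1.70 to 266 CPM), the iron-siderophore binder Lcn2 (6.04), ceruloplasmin Cp (4.83), Lrg1 (3.89), serum amyloid Saa1 (3.77, from 0 to 32 UMIs), C4b (3.44) and metallothionein Mt2 (1.82). Mt1 and Ctsl were at 0.30 and 0.34.

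Of interleukin 6 family genes, 5 of 12 were higher (median 0.30), all of them downstream genes: Bcl3 (2.74), the feedback inhibitor Socs3 (2.58), Stat3 itself (2.16), Cish (1.84) and the kinase Pim1 (1.43). The receptor chains with 30 or more UMIs were not 2-fold apart, with Il6st, the shared signal chain, at −0.10 and Lifr at 0.17. The receptor Osmr, given below, had too few UMIs to be counted here. Of the factors known at the fibrinogen promoters 2 of 6 were higher (median 0.25), Cebpb (2.92 [2.64 to 3.20]) and Stat3, while Hnf4a was at −0.15 and Cebpa at 0.06. With a pseudocount of 10 CPM the interleukin 6 count was 2.

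The chaperones of secretory folding were mostly within 2-fold, with 1 of 15 higher (Sdf2l1, 1.09), a median of 0.45 and Hspa5, the main chaperone of the endoplasmic reticulum, at 0.73; with TMM scaling the count was 0. Of the coagulation genes 1 of 5 measured was higher, tissue factor F3 (1.38), and of fibrinolysis genes 3 of 6, Anxa2 (2.31), S100a10 (1.59) and urokinase Plau (1.07). Of fibrinogen receptors 1 of 5 was higher, Icam1 (2.93), and of fibrinogen partners 0 of 3, with the fibrinogen-like Fgl1 at 0.67. Injury genes were higher in 10 of 12 (Havcr1 6.39, Spp1 4.91, Clu 4.64 and Sox9 4.53), and 5 of 16 genes of proximal tubule function were lower, led by Slc7a13 (−3.81). Of these 16, 15 are also markers of the gate, 10 of them in its proximal tubule list.

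The reversed library was compared with day 7, where 2.39% of all genes were higher and 7.05% lower (median −0.22). Acute-phase genes were lower in 5 of 10 (median −1.37): Cp (−3.81), C3 (−3.78), Lrg1 (−2.33), Lcn2 (−1.95) and Hp (−1.82). Cish, Bcl3, Pim1 and Socs3, 4 of the 12 interleukin 6 family genes, were lower at −2.24, −1.52, −1.39 and −1.06, and Cebpb (−1.46) was the 1 lower factor of 6. Injury genes were lower in 9 of 18 (median −1.03), and of the 14 chaperones measured none was 2-fold apart. Between day 7 and day 2 the acute-phase genes split, with Cp higher (1.77) and Saa1 (−2.25) and Mt2 (−1.15) lower among 9, against 6.24% of all genes higher and 1.85% lower. Compared with sham, reversed cells were higher in 5 of 9 acute-phase genes (Lcn2 3.40, C3 3.34, Cp 2.79, C4b 2.36 and Lrg1 1.14), against 7.54% of all genes. Injury genes were higher there in 15 of 16 and fibrinolysis genes in 5 of 7.

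**Figure D5:**
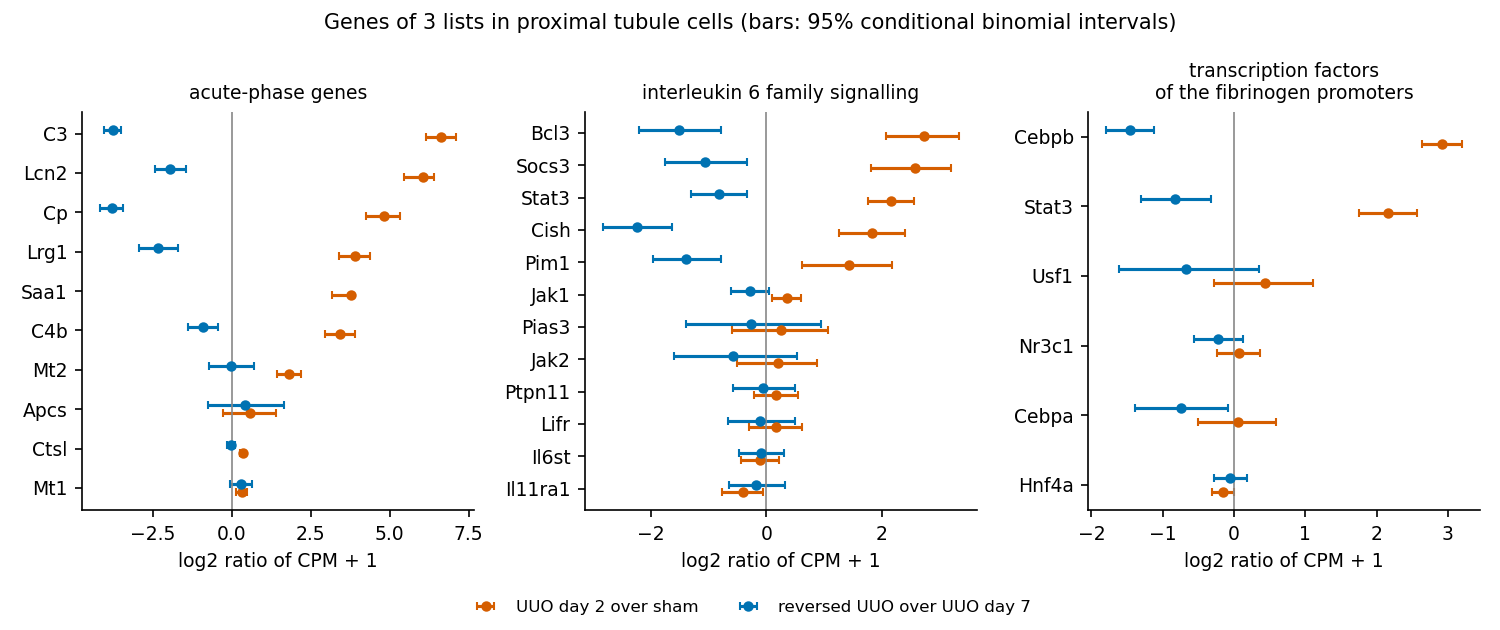
Log2 ratios (CPM + 1) of genes of 3 lists in proximal tubule cells, for day 2 over sham and reversed over day 7; bars are 95% conditional binomial intervals for counting error, and Saa1, with 0 UMIs in sham, has no upper bar. C3 is at 6.63 and −3.78, and Hnf4a lies near 0 in both.

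Il6, the ligand best known to act on the fibrinogen genes, had 0 UMIs in proximal tubule cells of every library and 0, 4.06, 1.87 and 6.41 CPM in phagocytes, and its receptor Il6ra had 2, 2, 2 and 16 UMIs in proximal tubule against 56.4 to 86.8 CPM in phagocytes. Osm, a related cytokine, was at 11.6, 92.3, 35.2 and 80.3 CPM in phagocytes, with its receptor Osmr at 0, 5.94, 3.75 and 1.33 CPM in proximal tubule. In the 53 sham phagocytes the floor of 3 UMIs is 17.4 CPM. This is above their Osm value and above every Il6 value given, so the sham level of either cytokine is not resolved. Osm itself was at 0, 1.98, 8.43 and 2.00 CPM in proximal tubule. Lif was at 20.2 CPM in thick ascending limb cells of day 2 (43 UMIs), against 0 in sham and 2.25 at day 7. Socs3 was higher in the thick ascending limb (3.03, 77.0, 117 and 51.3 CPM) than in the proximal tubule (0.956, 10.7, 20.6 and 9.34 CPM), the reverse of the fibrinogen order, while Cebpb was at 15.3, 122, 104 and 37.0 CPM in proximal tubule and 12.1, 86.4, 122 and 54.6 CPM in thick ascending limb. The sham Socs3 value of the thick ascending limb is below the floor of 3 UMIs (4.54 CPM), so the sham order of Socs3 is not resolved.

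The genes whose levels were most like the summed chains were named by Pearson's r. Over 41 sums of a class in a library (15181 genes), which share libraries and classes, they were Havcr1 (0.79), 2200002D01Rik (0.72), 0610040F04Rik (0.71), Stra6l (0.69), Gclm (0.69), Agpat9 (0.67), the serpin Serpina10 (0.67) and Dbi (0.65). Havcr1 was at 0.212, 101, 120 and 5.67 CPM in proximal tubule, and Serpina10 at 0, 66.5, 74.0 and 8.84 CPM, so both were low in sham and, unlike fibrinogen, not lower at day 7 than at day 2. Over the 455 day 2 proximal tubule cells (4484 genes) they were Spp1, which encodes osteopontin (0.53), the sulfate transporter Slc13a1 (0.45), Cd63 (0.37), Tmem176b (0.37), Tmem176a (0.36), Ugt2b37 (0.31), Ctsl (0.28) and Ugt2b38 (0.28). Slc13a1 was at 160, 1216, 1339 and 258 CPM.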

How the data were processed

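Live kidney cells were sorted with a DAPI gate after digestion on ice and made into droplet libraries with a 3′ single-cell kit, per the labels' protocols. The deposited droplet files hold raw UMI counts per gene and cell, and the deposited Smart-seq2 file holds read counts per gene and well without molecular identifiers. The submitters' processing notes name STAR, Cell Ranger, GRCm38 and mm10; which step used which, with versions and the counting of strand, is not given in the sources used here.

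Cells under 200 genes or over 50% mitochondrial UMIs were left out. Scrublet's own threshold marked 1, 11, 4 and 7 cells in the sham, day 2, day 7 and reversed libraries, so the highest scores were removed instead at 0.8% per 1000 cells (187, 48, 160 and 96 cells). Each cell took the class whose markers had the highest mean z score (capped at 3), if 3 or more were detected and the lead over the next class was 0.25 or more, the same lead splitting S1 or S2 from S3; 1253 of the cells stayed ungated. The gate's details were set after seeing the data. Of 11851 gated cells, 98.3% lay in clusters of the same name among 30 Leiden clusters (scanpy 1.11.5, leidenalg 0.10.2) made without the chains.

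UMIs were summed per library and class and divided by the class total (CPM). Intervals are exact at 95% (Poisson for sums, Clopper-Pearson for shares, conditional binomial for ratios) and cover counting error only. Log2 ratios are of CPM + 1, which understates low genes, and plain folds carry no pseudocount. A fold against 0 UMIs is a lower bound from a floor of 3 counts, and a share of 0 cells allows up to 3 of the cells measured. Genes needed 30 UMIs over the 2 libraries compared; lists were counted at 2-fold and the background at 4-fold. The ratio and thinning steps were tested on simulated data. Promoter windows are RefSeq's and gene models GENCODE vM21's.

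The 3 genes, the lists and the markers were chosen with earlier results of these data known. Named were the 3 chains, up to 6 genes of a list by UMIs plus any past 4-fold, and the 8 most like the summed chains over class sums and over day 2 proximal tubule cells (genes in 10% or more of them, counts scaled to 10000); other genes named were chosen after their values were seen. Some listed genes are not reported here and were left out of the list counts. Alternatives were other mitochondrial, gene and doublet limits, Leiden classes, TMM (edgeR 4.0.16) and DESeq2 1.42.0 size factors, other pseudocounts and thinning, equal cell weights and free-RNA subtraction. A gate lead of 0.1, dropping the cell with most chain UMIs and subtracting the phagocyte level were added after seeing the data. Python 3.11.15 and R 4.3.3 were used.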

Additional observations from a re-analysis of the deposited data

Results flagged for a closer look

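In the Smart-seq2 wells, which mix all time points with no label per well and enter no comparison, the chains were present at 1.96 (Fga), 1.81 (Fgb) and 2.86 (Fgg) reads per 1000000 reads. Some chain was found in 148 of 768 wells, with 1 chain in 99, 2 chains in 34 and all 3 in 15. Of the 1720 reads, 1098 were in 5 wells and 325 in 1. Among the 545 wells with 10000 or more reads, 99.4% had Ptprc, the leukocyte marker CD45, and 79 had Lrp2, the megalin receptor of proximal tubule; of the 109 such wells with a chain, 21 had Lrp2. Slc34a1, a proximal tubule phosphate transporter, was in 140 of the 545 wells, and Alb was at 2.58 reads per 1000000 reads, in 175 of all wells. Havcr1 had 1 read in all.

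Between day 7 and day 2 the CPM of the summed chains went in opposite directions by class. The log2 ratio was −0.81 in proximal tubule, 0.55 in intercalated and 0.85 in thin limb cells. It was 0.26 in thick ascending limb, with an interval that holds 0, −2.11 in distal convoluted or connecting tubule and −1.61 in principal cells, the last from 8 and 2 UMIs with an interval that holds 0. Within the proximal tubule it was −0.10 in S1 or S2 cells, also with an interval that holds 0, and −1.77 in S3 cells. With 1 library per time point these differences were not tested. The share of cells with any chain was lower at day 7 in all 3 classes: 55.2% against 78.5% in proximal tubule, 13.4% against 26.0% in intercalated and 13.04% against 29.0% in thin limb cells. Without the highest cell of each library, intercalated cells were at 45.7 CPM at day 2 and 65.8 CPM at day 7, and thin limb cells at 51.7 and 69.6 CPM. Gated thin limb cells had medians of 3 of 14 proximal tubule and 3 of 8 phagocyte markers. Thin limb cells with 3 or more chain UMIs numbered 4 at each time. They had medians of 5 and 2.5 proximal tubule markers at day 2 and day 7, against 2 in cells with none. These markers made up 0.132% and 0.330% of their UMIs, against 0.201% and 0.116%, so lower at day 2 and higher at day 7. Their median depths were 14938 and 10299.5 UMIs, against 7474 and 7938.5. With Leiden classes the day 7 thin limb level of Fgg was 36.6 CPM and not 71.1 CPM. The part of these in the difference was not tested.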

How the results depend on the processing

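Of 76 alternative values of the proximal tubule ratios and co-detection shares, 57 moved by less than their counting interval, 19 by more, and none of the ratios changed sign. For day 2 over sham (5.13) the range was 4.73 to 5.22: it was 4.90 with a mitochondrial limit of 20%, 4.94 on non-mitochondrial CPM, 4.77 with TMM, 4.79 with DESeq2 size factors and 4.73 with a pseudocount of 10 CPM. For day 7 over day 2 (−0.81) it was −1.27 at the 20% limit, −1.19 with Leiden classes, −1.04 with TMM and −1.02 with DESeq2. For reversed over day 7 (−3.14) it was −2.59, −2.81, −2.87 and −2.89 in the same order, and for reversed over sham (1.18) it was 0.86 with TMM and 0.87 with DESeq2. The share of cells with all 3 chains was 20.4% (day 2), 9.70% (day 7) and 0.566% (reversed) without thinning, and 5.71% at day 2 and 1.21% at day 7 when thinned to 2000 UMIs, against 1.76% and 1.82% at 1000 UMIs. Of 168 chain levels by class, 22 moved, 11 higher and 11 lower. Those of over 1.5 times were sham proximal tubule at the 20% limit, with 205 cells left (Fga 14.1, Fgb 1.41 and Fgg 23.9 CPM), and with Leiden classes at day 7 Fga in thick ascending limb (29.9 CPM), Fgg in thin limb (36.6 CPM) and Fga and Fgg in endothelium (2.45 and 0.981 CPM). Of 160 list values 33 moved, and with no filter beyond 1 UMI 0.380% of genes were 4-fold lower at day 7. The causes were not tested. Depth limits the sham thick ascending limb and intercalated cells, where 0 UMIs allow up to 4.54 and 8.53 CPM. No paired analysis was possible because each group is 1 library.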
